A study of Trichoderma harzianum with 18 samples.

Results

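In *T. harzianum*, the transcriptome of a strain without *xyr1* (Δ*xyr1-2*) on cellulose was compared with that of the same strain on D-fructose. The comparison uses 6 of the 18 RNA-Seq libraries of the study, chosen by strain and carbon source, with 3 replicate cultures on cellulose and 3 on D-fructose, and all 14650 genes of the count table were considered. Both groups carry the same deletion of *xyr1* and come from 1 transformant, in which a hygromycin resistance cassette takes the place of the gene. Washed mycelium from 36 h pre-cultures on D-fructose was moved to minimal medium with 1% (w/v) cellulose or with 25 mM D-fructose, and the RNA is from 18 h after the transfer, at 28 °C. The mutant without added carbon and the wild type, which keeps *xyr1*, on cellulose and on D-fructose are used for comparison, with 3 libraries each.

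XYR1 is the transcription factor that activates the cellulase and xylanase genes in *Trichoderma*. Cellulose is an insoluble polymer that yields sugar only after secreted enzymes have cut it, whereas D-fructose is taken up as it is, phosphorylated and broken down to pyruvate by glycolysis. Pyruvate can then enter the TCA cycle through the pyruvate dehydrogenase complex, or be turned into ethanol by pyruvate decarboxylase and alcohol dehydrogenase. When no sugar can be used, filamentous fungi draw on other carbon, for which the glyoxylate cycle and gluconeogenesis are the known routes.

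The reads on genes were between 19158004 and 19945330 per library on cellulose, and between 16566745 and 18662459 on D-fructose. The strain label was checked with the reads on *xyr1* itself (Triha1_1126), which were 7, 11 and 4 on cellulose and 0, 7 and 7 on D-fructose, compared with 3501 to 13130 in the wild type on cellulose and 1272 to 1956 in the wild type on D-fructose. Spearman's rho between replicates was between 0.987 and 0.994 on cellulose and between 0.943 and 0.991 on D-fructose, and it was between 0.782 and 0.860 across the carbon sources. The 100 genes with the most reads took 25.5, 23.8 and 24.3% of the reads on cellulose, against 38.0, 32.1 and 33.2% on D-fructose. The D-fructose replicate 1 stood apart from the other D-fructose cultures for many genes. These are bulk samples, in which fewer cells of a kind and less RNA per cell cannot be told apart.

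For each gene, the level per library is given as CPM, its counts scaled to the size of the library, with the TMM normalization of edgeR, which scales each library so that most genes do not change. Levels of different genes, and levels in the wild type, are given as the deposited FPKM, which are scaled for gene length and library total but not by TMM. A gene was called differentially expressed (DE) at an adjusted p under 0.05 and a fold change over 2, where its FPKM also averaged above 1 on either carbon source. Every adjusted p-value is from edgeR's quasi-likelihood test with Benjamini-Hochberg adjustment over all genes tested, and fold changes are cellulose over D-fructose on the log2 scale with their SE.

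Of the 11480 genes tested, 4541 were called, which is 39.6% of them. A higher expression on cellulose was called for 2251 genes (19.6%) and a lower expression for 2290 genes (19.9%). Changes were often large, with 908 genes higher and 932 lower by over 4-fold, and 79 higher and 79 lower by over 64-fold. The genes called higher took 23.2, 21.4 and 23.6% of all reads on cellulose, against 1.82, 3.40 and 2.56% on D-fructose. The genes called lower took 21, 19.7 and 19.6% of the reads on cellulose, against 60.0, 48.2 and 53.1% on D-fructose. The libraries of the groups did not overlap for 4514 of the 4541 called genes, and for 69.4% of all genes tested. Without the D-fructose replicate 1 the count was 4425, and with library size as the only scaling, which moves the median of all genes up by 0.71, the called genes split into 4426 higher and 1149 lower. The plot of all genes shows both sets on either side of the line of equal expression.

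**Figure D1:**
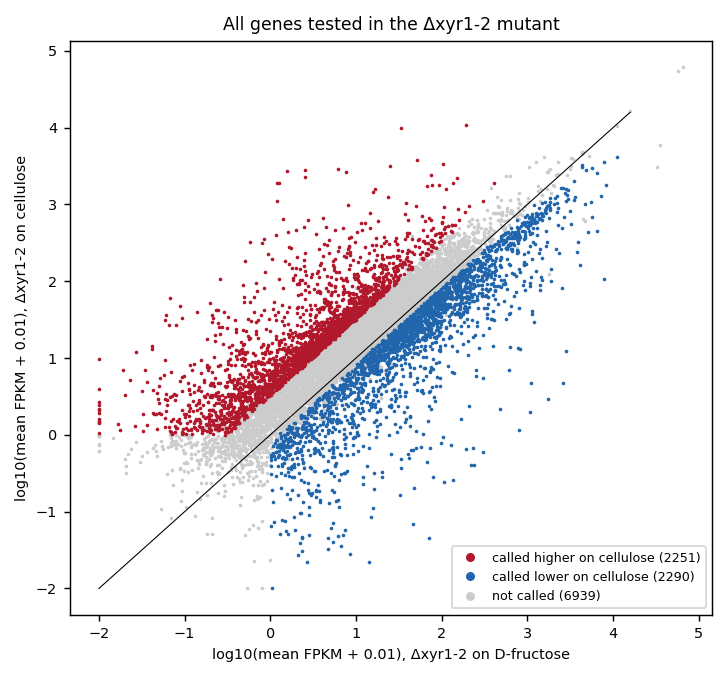
Mean FPKM of each of the 11480 genes tested in strain Δ*xyr1-2*, on cellulose (vertical axis) against D-fructose (horizontal axis), as log10(FPKM + 0.01). Red points are the 2251 genes called higher on cellulose, blue points the 2290 called lower, grey points the genes not called, and the line marks equal FPKM. FPKM are not scaled by TMM, and most grey points lie above the line.

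Most glycolytic genes were lower on cellulose. Of the 12 genes of the route from sugar to pyruvate, 10 were lower on cellulose (83.3%) and 0 were higher, beside 19.9% and 19.6% of all genes. Their median log2 fold change was -1.86, compared with 0.05 over all genes tested. At an unadjusted p under 0.05 there were 11 lower genes and 1 higher gene. With scaling by library size only 7 were lower and 1 was higher, and without the D-fructose replicate 1 there were 8 lower. These enzymes are named from their best matches in *T. reesei*. Their reads made up 0.597, 0.420 and 0.472% of the libraries on cellulose, against 1.69, 1.08 and 1.16% on D-fructose.

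The 4 largest falls were in the lower part of the pathway, where triose phosphates are turned into pyruvate. Phosphoglycerate mutase (Triha1_141171), which moves the phosphate group on glycerate, had 132, 63.6 and 76.4 CPM on cellulose, against 1510.5, 744 and 928 CPM on D-fructose. The fold change was -3.55 ± 0.41 (edgeR adjusted p = 0.00065). Phosphoglycerate kinase (Triha1_510202), the first ATP-forming step, had 622, 245 and 277 CPM on cellulose, against 5528, 2572 and 3156 CPM on D-fructose. The cellulose replicate 1 was the highest of its group for both genes, and remained well below every D-fructose culture. The fold change of phosphoglycerate kinase was -3.30 ± 0.51 (edgeR adjusted p = 0.0019).

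Enolase (Triha1_76434), which makes phosphoenolpyruvate, had 769, 420.0 and 486 CPM on cellulose, against 6767, 2327 and 3192 CPM on D-fructose (-2.88 ± 0.49, edgeR adjusted p = 0.0028). Glyceraldehyde-3-phosphate dehydrogenase (Triha1_506581), the oxidizing step, had 1241, 748 and 882 CPM on cellulose, against 6291, 2928 and 3507 CPM on D-fructose (-2.15 ± 0.39, edgeR adjusted p = 0.0035). It was the most abundant glycolytic transcript per length, at 1097 ± 240.2 FPKM on cellulose and 2865 ± 679.7 FPKM on D-fructose (SD, n = 3 each). The last step, pyruvate kinase (Triha1_100502), had 307, 250.2 and 301 CPM on cellulose, against 619, 488 and 574 CPM on D-fructose. Its fold change of -0.97 ± 0.17 (edgeR adjusted p = 0.0033) was just under the threshold of fold, and it was called with DESeq2.

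Other genes of the pathway lay before these steps. Triose-phosphate isomerase (Triha1_74460) had 205, 139 and 184 CPM on cellulose, against 1297, 402 and 449.7 CPM on D-fructose (-2.02 ± 0.48, edgeR adjusted p = 0.011). A second gene with this assignment, Triha1_511619, was much scarcer, at a mean of 2.35 CPM on cellulose and 8.73 CPM on D-fructose, and was also lower (-1.88 ± 0.34). The 6-phosphofructokinase gene (Triha1_96154), a main point of control of glycolysis, had 155, 117 and 125 CPM on cellulose, against 886, 244 and 297 CPM on D-fructose (-1.84 ± 0.50, edgeR adjusted p = 0.018). Here the D-fructose replicate 1 was over 2-fold above the other D-fructose cultures, and the call was lost without the cellulose replicate 2 (edgeR adjusted p = 0.065) or 3 (edgeR adjusted p = 0.064). Fructose-bisphosphate aldolase (Triha1_94438) changed by -1.15 ± 0.23, and by -0.97 without the D-fructose replicate 1. Glucose-6-phosphate isomerase (Triha1_497412), which links fructose 6-phosphate and glucose 6-phosphate, changed by -1.04 ± 0.31 (edgeR adjusted p = 0.024). Its call was lost with the replicate number as a block (-0.97, edgeR adjusted p = 0.013), and without the cellulose replicate 2 or 3 or the D-fructose replicate 1.

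The enzymes that phosphorylate the sugar did not move together. Glucokinase (Triha1_92402) had 123, 113 and 112 CPM on cellulose, against 379.7, 292 and 278 CPM on D-fructose (-1.45 ± 0.17, edgeR adjusted p = 0.00065). Hexokinase (Triha1_3663), which in fungi phosphorylates both glucose and fructose, had 242, 206 and 257 CPM on cellulose, against 158, 182 and 155 CPM on D-fructose. Its libraries did not overlap either, as for 69.4% of all genes tested. The change of 0.51 ± 0.15 (edgeR adjusted p = 0.024) was under 2-fold, and it was 1.20 and called with scaling by library size only.

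**Figure D2:**
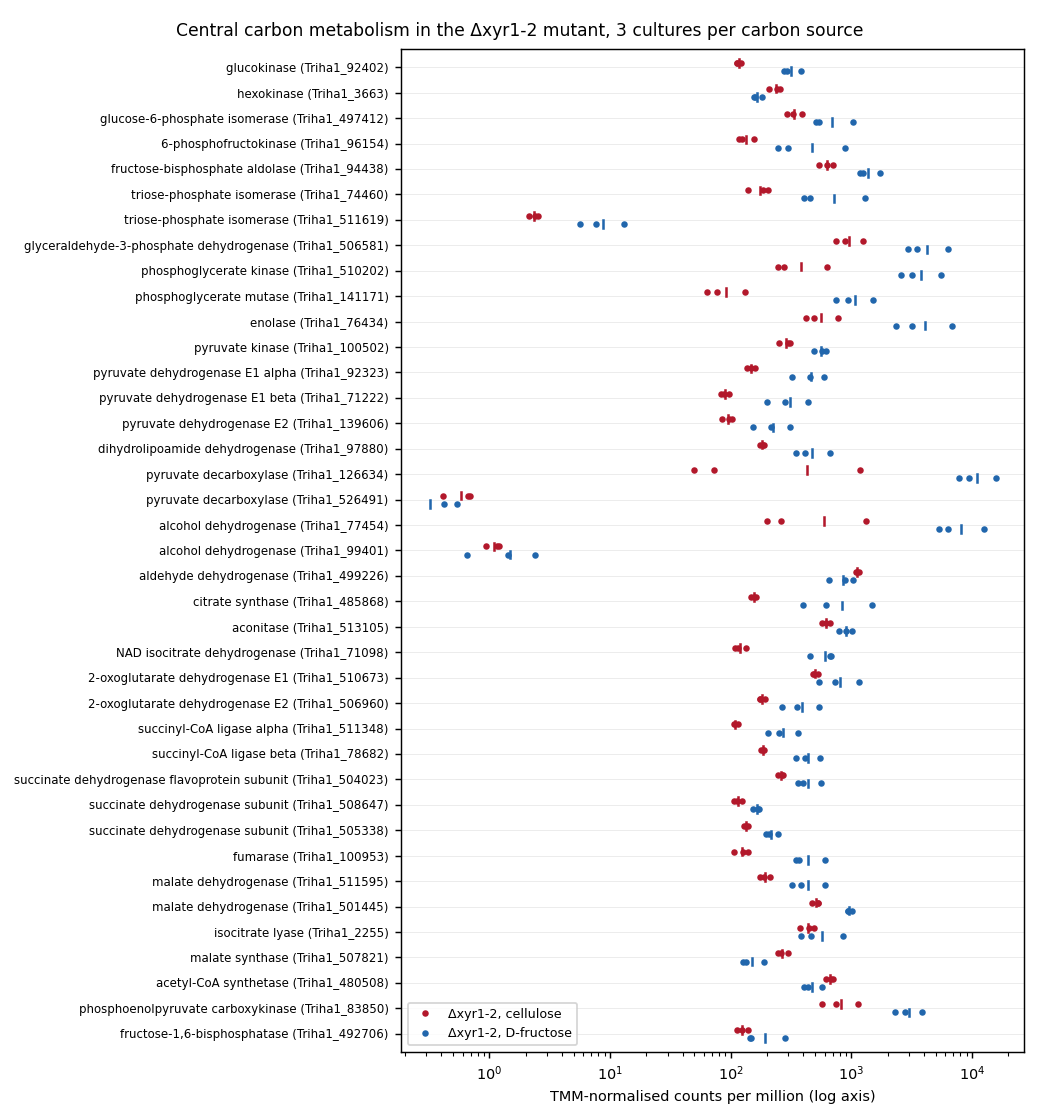
TMM-normalised CPM (log axis) of the genes of glycolysis, the pyruvate dehydrogenase complex, ethanol and acetate enzymes, the TCA cycle and the glyoxylate, acetate and gluconeogenesis list in strain Δ*xyr1-2*. Each point is 1 culture, red on cellulose and blue on D-fructose, and the bars are means of 3 cultures. The red points lie to the left of the blue points for 11 of the 12 glycolytic genes, and the points of malate synthase (Triha1_507821) and acetyl-CoA synthetase (Triha1_480508) lie in the other order.

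The pyruvate dehydrogenase complex, which makes acetyl-CoA in the mitochondria, was lower on cellulose for 4 of its 4 genes, beside 19.9% of all genes. The median was -1.51. The E1 beta subunit (Triha1_71222) had 87.6, 83.0 and 96.7 CPM on cellulose, against 440.2, 201 and 281 CPM on D-fructose (-1.79 ± 0.29, edgeR adjusted p = 0.0023). The E1 alpha subunit (Triha1_92323) changed by -1.63 ± 0.24, dihydrolipoamide dehydrogenase (Triha1_97880) by -1.38 ± 0.26 and the E2 subunit (Triha1_139606) by -1.25 ± 0.26. The direction of these 4 genes was the same with scaling by library size only, where 1 of them was called. The E2 subunit was at -0.98, under 2-fold, without the D-fructose replicate 1.

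In the TCA cycle, 7 of 13 genes were lower on cellulose (53.8%) and 0 were higher, beside 19.9% and 19.6% of all genes. The median was -1.10, and the 13 genes all had an unadjusted p under 0.05 in the lower direction. Citrate synthase (Triha1_485868), the entry step, had 157, 147 and 162 CPM on cellulose, against 1469.7, 400.0 and 618 CPM on D-fructose (-2.42 ± 0.48, edgeR adjusted p = 0.0050). The NAD isocitrate dehydrogenase gene (Triha1_71098) had 115, 109 and 133 CPM on cellulose, against 677, 456 and 667 CPM on D-fructose (-2.33 ± 0.21, edgeR adjusted p = 0.00029). The libraries of the groups did not overlap for either gene, as for 4514 of the 4541 called genes. Fumarase (Triha1_100953), which hydrates fumarate to malate, was also lower (-1.82 ± 0.26, edgeR adjusted p = 0.0014).

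The other lower genes of the cycle were the subunits of succinyl-CoA ligase (Triha1_511348, -1.31 ± 0.22, and Triha1_78682, -1.24 ± 0.20), malate dehydrogenase (Triha1_511595, -1.18 ± 0.26) and the E2 subunit of 2-oxoglutarate dehydrogenase (Triha1_506960, -1.10 ± 0.27). The last 2 of these were under 2-fold without the D-fructose replicate 1, at -0.89 and -0.81. The other 6 genes, among them aconitase and the 3 succinate dehydrogenase genes, had values between -0.90 and -0.52 and were not called. Under library size alone as the scaling, 3 of the 13 genes were lower, and aconitase (Triha1_513105), 2-oxoglutarate dehydrogenase E1 (Triha1_510673) and the succinate dehydrogenase genes Triha1_504023, Triha1_508647 and Triha1_505338 had values of 0 to 0.17 on the positive side.

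The genes of ethanol formation had some of the highest levels on D-fructose. Pyruvate decarboxylase (Triha1_126634), which takes pyruvate to acetaldehyde, had 1169, 72.1 and 49.7 CPM on cellulose, against 15804, 7854 and 9371 CPM on D-fructose. The fold change was -4.68 ± 1.34 (edgeR adjusted p = 0.022). The cellulose replicate 1 was over 10-fold above the other cellulose cultures, and the call was lost without the cellulose replicate 2 (-4.17, edgeR adjusted p = 0.053). The alcohol dehydrogenase Triha1_77454 had 1314, 200.2 and 263 CPM on cellulose, against 12503, 5313 and 6264 CPM on D-fructose (-3.76 ± 0.86, edgeR adjusted p = 0.0091). It had the same high cellulose replicate 1. Without that culture both genes were still called lower.

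The other genes of this list were scarce or did not change by 2-fold. Aldehyde dehydrogenase (Triha1_499226), which oxidizes acetaldehyde to acetate, had 1148, 1096 and 1107 CPM on cellulose, against 888, 1032 and 649.6 CPM on D-fructose (0.38 ± 0.22, edgeR adjusted p = 0.18). A second pyruvate decarboxylase (Triha1_526491) and a second alcohol dehydrogenase (Triha1_99401) were under 2 FPKM on both carbon sources and were not called. Another alcohol dehydrogenase (Triha1_546870) had 1 read in the 6 libraries and was not tested.

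In the list of glyoxylate cycle, acetate and gluconeogenesis genes, 0 of 5 were higher and 1 was lower, compared with 19.6% of all genes higher and 19.9% lower. The median was -0.37, and at an unadjusted p under 0.05 there were 2 higher and 1 lower. The lower gene was phosphoenolpyruvate carboxykinase (Triha1_83850), the entry step of gluconeogenesis, with 1131, 566 and 742 CPM on cellulose, against 3848, 2296 and 2789 CPM on D-fructose (-1.87 ± 0.35, edgeR adjusted p = 0.0040). Fructose-1,6-bisphosphatase (Triha1_492706), which makes fructose 6-phosphate in gluconeogenesis, had 123, 112 and 138 CPM on cellulose, against 282, 146 and 145 CPM on D-fructose (-0.62 ± 0.28, edgeR adjusted p = 0.10).

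Isocitrate lyase (Triha1_2255), which splits isocitrate in the glyoxylate cycle, overlapped between the groups, with 378, 445 and 489.5 CPM on cellulose and 850.4, 463 and 385 CPM on D-fructose (-0.37 ± 0.32, edgeR adjusted p = 0.34). Its sign rested on the D-fructose replicate 1, as the value was 0.03 without it. Malate synthase (Triha1_507821), the next step, had 244, 262 and 298 CPM on cellulose, against 133, 187 and 127 CPM on D-fructose. The change of 0.85 ± 0.19 (edgeR adjusted p = 0.0090) was under 2-fold, and it was 1.03 without the D-fructose replicate 2. Acetyl-CoA synthetase (Triha1_480508), which activates acetate, was at 0.50 ± 0.19. With scaling by library size only, malate synthase and acetyl-CoA synthetase were called higher.

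The pentose phosphate pathway, which makes NADPH and pentoses, had 2 of 8 tested genes lower and 0 higher, which for the lower genes is near the 19.9% of all genes. The median was -0.46, and at an unadjusted p under 0.05 there were 5 lower and 1 higher. Glucose-6-phosphate dehydrogenase (Triha1_2183), its first enzyme, was at -0.44 ± 0.14, and the sign of this value turned to 0.26 with scaling by library size only. Transaldolase (Triha1_497892) had 586, 466 and 530.0 CPM on cellulose, against 1493, 1042 and 1135 CPM on D-fructose (-1.21 ± 0.22, edgeR adjusted p = 0.0034). The gene with the largest change was Triha1_498824, assigned to ribose-5-phosphate isomerase B, a bacterial type of this enzyme. It had 0.427, 0.523 and 0.233 CPM on cellulose, against 48.1, 16.4 and 29.3 CPM on D-fructose (-6.28 ± 0.54, edgeR adjusted p = 0.00025). The other ribose-5-phosphate isomerase (Triha1_95521) was at 0.41 ± 0.13 and was not called.

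In the pentose catabolic pathway, which carries D-xylose and L-arabinose to D-xylulose 5-phosphate, 2 of 6 genes were higher and 1 was lower, with a median of 0.71. In this short list these are 33.3% and 16.7%, beside 19.6% and 19.9% of all genes. With scaling by library size only there were 4 higher and 0 lower. Xylitol dehydrogenase (Triha1_508280) had 86.9, 74.0 and 96.0 CPM on cellulose, against 6.01, 12.5 and 8.26 CPM on D-fructose (3.25 ± 0.29, edgeR adjusted p = 0.00028). L-Arabitol dehydrogenase (Triha1_495252) had 48.0, 42.8 and 48.1 CPM on cellulose, against 15.5, 12.4 and 8.81 CPM on D-fructose (1.93 ± 0.22, edgeR adjusted p = 0.00065). The libraries did not overlap for either gene, as for 4514 of the 4541 called genes. L-Xylulose reductase (Triha1_479566) was lower (-1.35 ± 0.15, edgeR adjusted p = 0.00057), a call lost with scaling by library size only (-0.65). D-Xylose reductase (Triha1_83947, 0.78 ± 0.13), D-xylulokinase (Triha1_499653, -0.53 ± 0.17) and L-xylo-3-hexulose reductase (Triha1_83091, 0.63 ± 0.15) changed by less than 2-fold. With scaling by library size only, D-xylose reductase (1.48) and L-xylo-3-hexulose reductase (1.32) were called higher.

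The galactose Leloir pathway, which turns galactose into glucose 1-phosphate, had 1 of 4 genes lower and 0 higher, beside 19.9% and 19.6% of all genes. The median was -1.14, and all 4 genes had an unadjusted p under 0.05 in the lower direction. The count of 1 was 3 with DESeq2, 2 without the cellulose replicate 1 or any 1 of the D-fructose cultures, and 0 with scaling by library size only. The lower gene was galactose-1-phosphate uridylyltransferase (Triha1_215393, -1.31 ± 0.24). Galactokinase (Triha1_392196) had 46.3, 40.9 and 42.5 CPM on cellulose, against 305, 54.4 and 55.4 CPM on D-fructose, and its value was -1.67 ± 0.68 (edgeR adjusted p = 0.072), which was called with all 18 libraries in one fit (-1.69, edgeR adjusted p = 0.0096). Without the D-fructose replicate 1, which was over 5-fold above the other cultures, the value was -0.37. Of the 7 galacturonate and rhamnose genes, which serve pectin sugars, 2 were higher (28.6%, beside 19.6% of all genes) and 0 lower. Their median was 0.29, with 1 lower gene at an unadjusted p under 0.05. Galacturonate reductase (Triha1_109919) had 43.6, 36.1 and 46.2 CPM on cellulose, against 7.89, 21 and 14.6 CPM on D-fructose (1.53 ± 0.34, edgeR adjusted p = 0.0080), and the aldolase of the same route (Triha1_479498) was at 1.53 ± 0.35. Over all 91 carbon catabolic enzymes tested, 4 were higher (4.4%) and 33 lower (36.3%), beside 19.6% and 19.9% of all genes. With scaling by library size only these counts were 18 and 17.

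More sugar transporters were higher than lower on cellulose. Of the 90 predicted transporters with the Pfam domain PF00083, 78 were tested, 31 were higher on cellulose and 9 were lower, with a median of 1.08. These are 39.7% and 11.5% of those tested, beside 19.6% and 19.9% of all genes. Under library size alone as the scaling, there were 45 higher and 7 lower. Their reads made up 1.20, 1.03 and 1.07% of the libraries on cellulose, against 0.356, 0.376 and 0.321% on D-fructose. The other 12 had at most 61 reads in the 6 libraries.

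**Figure D3:**
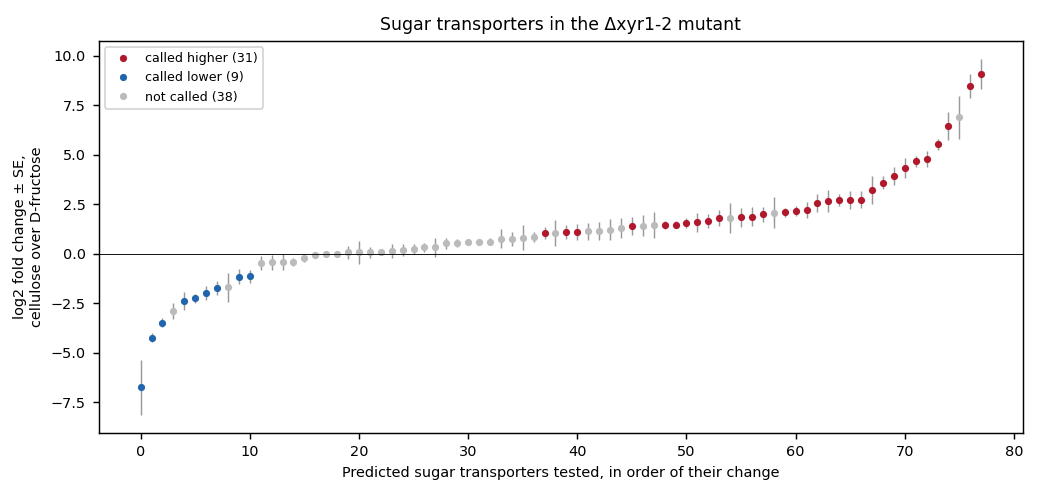
Log2 fold change, cellulose over D-fructose, of the 78 predicted sugar transporters tested in strain Δ*xyr1-2*, in order of their change, with bars for the SE. Red points are the 31 called higher, blue points the 9 called lower and grey points the 38 not called.

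Transporters that rose included some that had almost no reads on D-fructose. Triha1_501017 had 4.53, 3.22 and 2.65 CPM on cellulose and no read in the 3 D-fructose libraries, so it was at least 48.3-fold higher, taking 3 reads over the D-fructose group as the floor. Triha1_151293 had 13.8, 10.5 and 7.47 CPM on cellulose, against 0, 0.0594 and 0 CPM on D-fructose, where it had 1 read in all, a ratio of 443 with a 95% counting interval of 79.3 to 17527. Such intervals cover counting error only. Triha1_478307 had 64.1, 25.4 and 23.7 CPM on cellulose, against 0.939, 0.178 and 0.271 CPM on D-fructose (6.47 ± 0.71, edgeR adjusted p = 0.00055).

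The most abundant transporter was Triha1_93294, with 1892 ± 236 FPKM on cellulose and 406 ± 138 FPKM on D-fructose (SD, n = 3 each). Its CPM were 2856, 2275 and 2112 on cellulose, against 766, 1018 and 704 on D-fructose (1.54 ± 0.25, edgeR adjusted p = 0.0023). Triha1_502689, the match of the *T. reesei* cellodextrin transporter CRT1, had 152, 96.6 and 67.6 CPM on cellulose, against 45.5, 29.3 and 24.1 CPM on D-fructose (1.68 ± 0.36, edgeR adjusted p = 0.0072). The libraries did not overlap for either gene, as for 4514 of the 4541 called genes. In *T. reesei*, CRT1 is known for its part in the induction of cellulases.

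Among the 9 transporters that fell, Triha1_79806 had 8.71, 5.91 and 6.26 CPM on cellulose, against 1952, 60.9 and 228 CPM on D-fructose (-6.74 ± 1.38, edgeR adjusted p = 0.0059). The D-fructose cultures differed from each other by over 30-fold, and each was above every cellulose culture. Triha1_481046 had 23.4, 15.8 and 20.7 CPM on cellulose, against 342, 337 and 449 CPM on D-fructose (-4.24 ± 0.23, edgeR adjusted p = 6.9e-05). Triha1_535143 had 5.13, 5.72 and 3.69 CPM on cellulose, against 47.0, 53.5 and 62.1 CPM on D-fructose (-3.48 ± 0.22, edgeR adjusted p = 0.00011).

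Plant biomass-degrading (PBD) CAZymes were taken from the 818 genes of the annotation table that were used here, so they are a part of that group and its other members were not analysed here. Of the 58 in this list, 26 had enough reads to be tested, 11 were higher on cellulose and 5 were lower, with a median of 1.28. These are 42.3% and 19.2% of those tested, beside 19.6% and 19.9% of all genes. With scaling by library size only there were 16 higher and 2 lower, and without the cellulose replicate 2 or 3 there were 3 lower. The other 32 had at most 97 reads in the 6 libraries. The reads on the list were 0.382, 0.390 and 0.362% on cellulose, against 0.127, 0.179 and 0.129% on D-fructose.

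Of 8 tested enzymes of the list that the annotation assigns to cellulose, 3 were higher and 2 were lower, beside the 19.6% and 19.9% of all genes. With scaling by library size only there were 5 higher and 1 lower, and the lower count was 1 without any 1 of the cellulose cultures or the D-fructose replicate 1. Triha1_119344 (GH5_15), annotated as an endo-β-1,4-glucanase, had 39.0, 15.6 and 21.6 CPM on cellulose, against 1.22, 1.84 and 0.542 CPM on D-fructose (4.38 ± 0.54, edgeR adjusted p = 0.00080). Triha1_507162 (GH5_12), with the same annotation, had 66.2, 67.8 and 68.0 CPM on cellulose, against 20.6, 28.6 and 23.6 CPM on D-fructose (1.47 ± 0.16, edgeR adjusted p = 0.00049). For both genes the activity is a prediction, and whether the enzymes cut cellulose was not tested. The AA9 lytic polysaccharide monooxygenase Triha1_99387, an enzyme that cuts crystalline cellulose by oxidation, was higher by 2.11 ± 0.47 but reached only 1.55 ± 0.535 FPKM on cellulose (SD, n = 3). For 11 of the 19 listed cellulose-acting enzymes there were at most 54 reads in the 6 libraries, and they were not tested.

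The endo-β-1,4-glucanases Triha1_6750 (GH5_5) and Triha1_362575 (GH12) were lower on cellulose. Triha1_6750 had 79.5, 68.8 and 64.7 CPM on cellulose, against 909.6, 158 and 188 CPM on D-fructose (-2.56 ± 0.69, edgeR adjusted p = 0.018). The D-fructose replicate 1 was over 4-fold above the other D-fructose cultures, and the call was lost when any cellulose culture was left out (edgeR adjusted p = 0.052 to 0.064). Triha1_362575 changed by -1.22 ± 0.28, and by -0.88 without the D-fructose replicate 1. Of the GH3 β-glucosidases, which split cellobiose, Triha1_96503 had 127, 102 and 104 CPM on cellulose, against 13.2, 34.8 and 26.6 CPM on D-fructose (2.15 ± 0.34, edgeR adjusted p = 0.0021). Triha1_504610 was at -0.54 ± 0.21 (edgeR adjusted p = 0.066), and at 0.13 with scaling by library size only.

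Among 11 tested xylan-acting enzymes, 4 were higher (36.4%) and 3 were lower (27.3%), beside 19.6% and 19.9% of all genes. The GH11 endo-xylanase Triha1_118868 had 3.25, 2.54 and 2.88 CPM on cellulose, against 0.0939, 0 and 0 CPM on D-fructose, where it had 1 read, a ratio of 121 with a 95% counting interval of 21.6 to 4816. The CE16 esterase Triha1_105085 (2.41 ± 0.32) and the CE3 esterase Triha1_118553 (2.24 ± 0.18) were also higher. A second CE3 esterase, Triha1_157348 (-2.37 ± 0.34), and the CE5 cutinases or acetylxylan esterases Triha1_109468 (-1.36 ± 0.37) and Triha1_81377 (-1.25 ± 0.24) were lower. The call of Triha1_109468 was lost without the cellulose replicate 2 or 3 or the D-fructose replicate 2.

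Of the other 7 tested PBD CAZymes, 4 were higher (57.1%) and 0 lower, beside 19.6% and 19.9% of all genes. At an unadjusted p under 0.05 there were 5 higher and 0 lower. The glucoamylase Triha1_81392 (GH15), which releases glucose from starch and glycogen-like glucans, had 741, 519 and 619 CPM on cellulose, against 114, 89.8 and 86.7 CPM on D-fructose (2.69 ± 0.21, edgeR adjusted p = 0.00019). The endo-β-1,4-mannanase Triha1_99972 had 5.04, 6.17 and 5.99 CPM on cellulose, against 0, 0 and 0.0677 CPM on D-fructose, a ratio of 243 with a 95% counting interval of 43.4 to 9632. A second endo-β-1,4-mannanase, Triha1_111861, was higher by 3.39 ± 0.57. The GH28 pectinase Triha1_88799 was the most abundant of these 58 PBD CAZymes on cellulose, at 1639.9 ± 132 FPKM there and 379.5 ± 289 FPKM on D-fructose (SD, n = 3 each). Its change of 1.51 ± 0.55 (edgeR adjusted p = 0.051) did not pass the threshold, but this rested on single libraries and on the fit. It was called without the D-fructose replicate 1 (1.06, edgeR adjusted p = 0.0065) or 2 (2.05, edgeR adjusted p = 0.022), with the replicate number as a block (1.79, edgeR adjusted p = 0.032), with library size only (2.11, edgeR adjusted p = 0.019) and with DESeq2 (1.48, DESeq2 adjusted p = 0.012).

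A list of ribosomal proteins and translation was made from the GO terms of the same 818 genes, which leaves out the other genes of translation. In it, 10 of 15 genes were lower (66.7%) and 0 were higher, beside 19.9% and 19.6% of all genes. The median was -1.43, and at an unadjusted p under 0.05 there were 14 lower and 1 higher. Under library size alone as the scaling, 4 were lower and 1 was higher. The ribosomal protein gene Triha1_145309 (L29 family) had 277, 312 and 350.3 CPM on cellulose, against 1169, 879 and 1101 CPM on D-fructose (-1.75 ± 0.20, edgeR adjusted p = 0.00063). Triha1_509956 (S14 family) changed by -1.82 ± 0.20. The largest fall in the list, -4.07 ± 0.34, was that of Triha1_112882, whose domains and EC number are those of aminoadipate reductase of lysine synthesis rather than of a ribosomal protein. Of 5 RNA polymerase subunit genes 2 were lower (40.0%) and 0 higher, beside 19.9% and 19.6% of all genes. The 5 genes all had an unadjusted p under 0.05 in the lower direction. The 2 lower ones, Triha1_281509 (-1.11 ± 0.20) and Triha1_81765 (-1.05 ± 0.18), were under 2-fold without the D-fructose replicate 1. Both calls were also lost with all 18 libraries in one fit (edgeR adjusted p = 0.051 and 0.066) and with scaling by library size only (-0.37 and -0.33).

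Of 20 genes of DNA-binding transcription factors among the 818, 4 were higher and 2 lower, with a median of 0.33, compared with 19.6% of all genes higher and 19.9% lower. These counts moved with the settings, to 11 and 1 with scaling by library size only, and to 0 and 1 without the D-fructose replicate 1. The zinc cluster gene Triha1_479513 had 0.897, 0.187 and 0.311 CPM on cellulose, against 29.6, 5.35 and 18.6 CPM on D-fructose (-5.26 ± 0.83, edgeR adjusted p = 0.0020). The bZIP gene Triha1_90363 was the most abundant of the list, at 167 ± 13.8 FPKM on cellulose and 204 ± 13.8 FPKM on D-fructose (SD, n = 3 each), which are not scaled by TMM. With TMM its change was -1.03 ± 0.21. The call was lost without the cellulose replicate 3 (-0.96) or the D-fructose replicate 1 (-0.84), and with scaling by library size only (-0.28). The zinc cluster genes Triha1_496021, Triha1_200488 and Triha1_487891 were higher by 1.06 to 1.09.

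Of 7 tested proteolysis genes, 2 were higher and 1 was lower, with a median of -0.75, compared with 19.6% of all genes higher and 19.9% lower. The lower count was 2 without the cellulose replicate 2 or the D-fructose replicate 2. The M28 aminopeptidase Triha1_501003 had 21.8, 24.8 and 35.1 CPM on cellulose, against 0, 0.178 and 0 CPM on D-fructose, where it had 3 reads, a ratio of 385 with a 95% counting interval of 132 to 1869. The metallopeptidase Triha1_502174 was higher by 5.22 ± 0.74, while Triha1_98848, with the domain of acid peptidases, was lower by 5.55 ± 1.22 on the log2 scale. Of 28 other oxidoreductases, 6 were higher (21.4%) and 11 lower (39.3%), with a median of -0.36. Triha1_508810, annotated as 3-hydroxyisobutyrate dehydrogenase of valine breakdown, had 91.5, 113 and 127 CPM on cellulose, against 15.0, 31.6 and 25.7 CPM on D-fructose (2.19 ± 0.29, edgeR adjusted p = 0.0011). Triha1_80963, of the old yellow enzyme family, had the largest fall (-5.40 ± 1.17), and the multicopper oxidase Triha1_80146, of the AA1_2 family of ferroxidases, had 49.2, 40.3 and 47.8 CPM on cellulose, against 1675, 486 and 940.0 CPM on D-fructose (-4.50 ± 0.48, edgeR adjusted p = 0.00052).

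Of the genes with the largest rise, Triha1_101028 had 3310.2, 2170.0 and 2828 CPM on cellulose, against 1.97, 2.91 and 2.57 CPM on D-fructose (10.11 ± 0.37, edgeR adjusted p = 3.2e-05). Triha1_505895 had 2424, 1763 and 2111 CPM on cellulose, against 1.88, 2.5 and 1.96 CPM on D-fructose (9.95 ± 0.32, edgeR adjusted p = 3.0e-05). Triha1_150678 (9.91 ± 0.61), Triha1_499088 (9.19 ± 0.41) and Triha1_101981 (9.15 ± 0.50) had the same pattern, with 823 to 2397 CPM on cellulose and 0.751 to 4.81 CPM on D-fructose. The annotation used here gives no function for these 5 genes.

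In all, 12 genes called higher had no read in any D-fructose library. The one with the most reads on cellulose among the genes named was Triha1_511032, with 9.91, 9.91 and 10.8 CPM on cellulose, at least 144-fold higher against the floor of 3 reads over the D-fructose group. Triha1_149383 had 23.3, 19.3 and 19.1 CPM on cellulose, against 0, 0.0594 and 0.0677 CPM on D-fructose, a ratio of 432 with a 95% counting interval of 119 to 3573. Triha1_510507 had 67.9, 48.6 and 61.6 CPM on cellulose, against 0, 0.119 and 0.136 CPM on D-fructose (9.21 ± 0.40, edgeR adjusted p = 5.3e-05).

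By level, the largest rise was that of Triha1_3176, which has the Pfam domain of hydrophobins (PF06766), small surface proteins that coat hyphae and spores. It had 2700.4, 1798 and 3368 CPM on cellulose, against 118, 40.9 and 78.4 CPM on D-fructose (5.05 ± 0.50, edgeR adjusted p = 0.00040). Its level per length was 10844 ± 3125 FPKM on cellulose and 191 ± 64.8 FPKM on D-fructose (SD, n = 3 each). Triha1_55634, with no function in the annotation used here, had 9970.4 ± 2398 FPKM on cellulose and 33.9 ± 30.8 FPKM on D-fructose (7.34 ± 0.91, edgeR adjusted p = 0.00086). The next 6 genes by level were Triha1_506900, Triha1_511478, Triha1_374170, Triha1_511110, Triha1_486558 and Triha1_101028, which had mean FPKM of 2733 to 3831 on cellulose and 1.55 to 104 on D-fructose.

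By level, the largest fall was that of Triha1_78687, with 107 ± 160.2 FPKM on cellulose and 7861 ± 7145 FPKM on D-fructose (SD, n = 3 each). Its CPM were 120.2, 5.72 and 5.06 on cellulose, against 12559.9, 1532 and 2974 on D-fructose (-7.03 ± 1.75, edgeR adjusted p = 0.013). Both groups were uneven, with replicate 1 the highest on each carbon source. Triha1_511404 was even, with 2873, 3017 and 2526 CPM on cellulose, against 14526, 10835 and 11964 CPM on D-fructose (-2.15 ± 0.29, edgeR adjusted p = 0.0012). Triha1_505440 had 594, 639 and 559 CPM on cellulose, against 4726, 4571 and 4154 CPM on D-fructose (-2.91 ± 0.23, edgeR adjusted p = 0.00019). The others in this order were Triha1_502367, Triha1_485479, the alcohol dehydrogenase Triha1_77454, Triha1_94640 and Triha1_506324, with mean FPKM of 439 to 1276 on cellulose and 5149.9 to 7231 on D-fructose. Of these, Triha1_485479 lost its call without the cellulose replicate 2 or 3 or the D-fructose replicate 3 (edgeR adjusted p = 0.060 to 0.062).

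Among the genes with the largest fall by fold, several were next to each other in the genome. In the order of genes in the reference, where scaffold ends were inferred, 8 neighbours from Triha1_88948 to Triha1_509408 were all lower on cellulose, with a median of -9.99. Triha1_145786 had 0.384, 4.11 and 0.311 CPM on cellulose, against 4818, 572 and 964 CPM on D-fructose (-10.35 ± 1.64, edgeR adjusted p = 0.0021). Triha1_145790 had 2.05, 11.4 and 1.01 CPM on cellulose, against 11973, 1589.6 and 2929 CPM on D-fructose (-10.15 ± 1.53, edgeR adjusted p = 0.0017). Triha1_118476 had 1.45, 7.22 and 0.778 CPM on cellulose, against 6397, 1289 and 2148 CPM on D-fructose (-10.02 ± 1.32, edgeR adjusted p = 0.0010). For these 3 genes the D-fructose replicate 1 was the highest and the cellulose replicate 2 the highest of its group.

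The other members of the run were Triha1_118482 (-10.01 ± 1.42), Triha1_17731 (-9.97 ± 1.25), Triha1_88948 (-8.66 ± 0.61), Triha1_509408 (-7.13 ± 1.21) and Triha1_88544, which changed least (-1.73 ± 0.20). The gene before the run, Triha1_531915, was not called (0.89 ± 0.25), and the gene after it, Triha1_509409, was higher on cellulose (1.95 ± 0.41, edgeR adjusted p = 0.0066). The functions of these genes are not given in the annotation used here. Other genes with a fall of this size were Triha1_144183 and Triha1_270898, with 3 reads and 1 read on cellulose. Their ratios of D-fructose over cellulose were 3105 (95% counting interval 1062 to 15063) and 1859 (333 to 73491). Triha1_120760 (-10.50 ± 1.19), Triha1_513160 (-10.05 ± 0.91) and Triha1_515795 (-9.97 ± 1.50) completed the set.

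**Figure D4:**
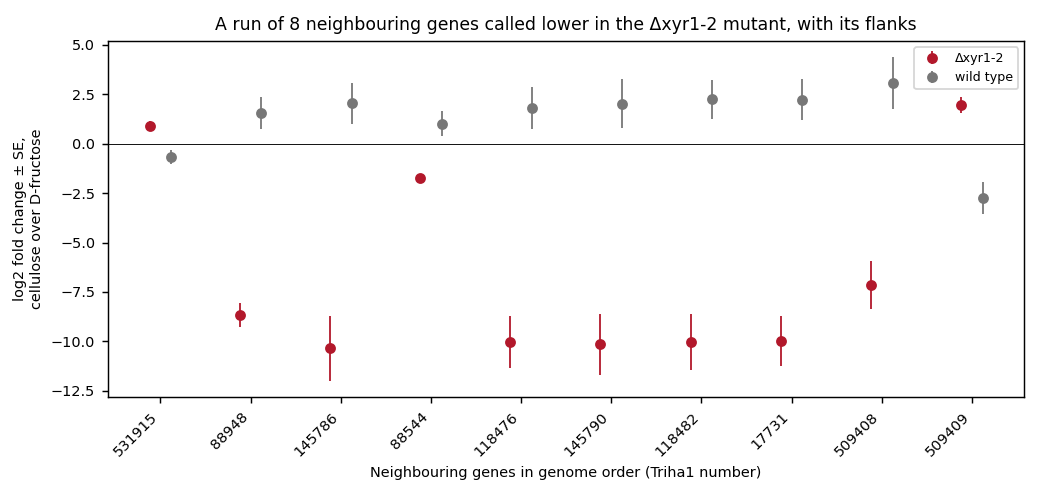
Log2 fold change, cellulose over D-fructose, with SE, of 8 neighbouring genes and their flanking genes in genome order, red in strain Δ*xyr1-2* and grey in the wild type. The 8 genes are between -10.35 and -1.73 in the mutant and between 1.01 and 3.06 in the wild type, and the flanking genes have the other order.

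Runs of neighbours that changed in the same direction were found across the genome. There were 46 runs of 4 or more adjacent genes called higher, with 216 genes, and 39 runs of adjacent genes called lower, with 183 genes, and the longest of each kind had 8 genes. The gene after one called higher was also higher in 30.8% of 2185 cases and lower in 8.33%. The gene after one called lower was also lower in 28.4% of 2250 cases and higher in 9.78%. Over all 14240 neighbouring pairs of annotated genes, the next gene was higher in 15.4% and lower in 15.8%. The longest run of higher genes went from Triha1_96811 to Triha1_96734, with a median of 1.89. The ferroxidase-type gene Triha1_80146 lay at the end of a run of 6 lower genes, with a median of -2.98.

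Of the 360 transcripts that the authors added outside the annotated genes, 244 were tested, 64 were higher (26.2%) and 38 lower (15.6%) on cellulose, with a median of 0.45. Over all genes tested, 19.6% were higher and 19.9% lower. The lower count was 25 without the cellulose replicate 3 and 24 with scaling by library size only. Of the 205 tRNA genes, 28 had enough reads to be tested, and 12 were higher (42.9%) and 3 lower (10.7%), although the libraries were made from poly-A RNA. The count of higher tRNA genes was 6 to 7 without the cellulose replicate 1 or 3 or the D-fructose replicate 3, and that of lower ones was 7 with DESeq2.

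To place these changes beside those of the mutant without added carbon, the same genes were compared there. On cellulose compared with no carbon, 9 of 11509 genes were called, which is 0.0782%, with 9 higher and 0 lower on cellulose. At an unadjusted p under 0.05 there were 515 genes, and DESeq2 called 17. The block of replicates, which pairs these cultures, left 6 calls, and leaving out each library gave 4 to 8. The mutant without added carbon compared with D-fructose had 4411 of 11312 genes called (39.0%), with 2118 higher (18.7%) and 2293 lower (20.3%). It shares its D-fructose libraries with the comparison reported here, so both sets are not independent.

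Values of several lists and genes were close in the mutant on cellulose and without added carbon. The median of the glycolytic genes was -1.86 on cellulose and -2.0 without added carbon, both over D-fructose, and that of the sugar transporters was 1.08 on cellulose and 0.85 without added carbon. Other lists were less close, over the members tested in each comparison. In the same order, the medians were 1.28 and 0.36 for PBD CAZymes, and -0.75 and 0.03 for proteolysis genes. The hydrophobin-type gene Triha1_3176 had 10844 ± 3125 FPKM on cellulose and 10963 ± 1066 FPKM without added carbon, compared with 191 ± 64.8 FPKM on D-fructose (SD, n = 3 each). Triha1_101028 had 2733 ± 445 FPKM on cellulose and 2539 ± 103 FPKM without added carbon, compared with 1.55 ± 0.530 FPKM on D-fructose. Enolase had 539 ± 153 FPKM on cellulose and 492 ± 52.2 FPKM without added carbon, compared with 2292 ± 897 FPKM on D-fructose.

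The 9 genes called against no carbon were also called against D-fructose, 8 of them higher on cellulose and Triha1_80146 lower. The transporter Triha1_151293 had 6.90 ± 1.86 FPKM on cellulose and 0.464 ± 0.199 FPKM without added carbon, and the CRT1 match Triha1_502689 had 58.0 ± 21.4 FPKM on cellulose and 7.78 ± 0.487 FPKM without added carbon (SD, n = 3 each). The endo-β-1,4-mannanase Triha1_99972 had 5.18 ± 0.770 FPKM on cellulose and 0.817 ± 0.351 FPKM without added carbon. The genes Triha1_493809, at 34.4 ± 4.2 FPKM on cellulose and 6.56 ± 0.220 FPKM without added carbon, and Triha1_107669, at 26.4 ± 4.69 and 9.09 ± 1.14 FPKM in this order, had no function in the annotation used here. The ferroxidase-type gene Triha1_80146 had 31.2 ± 2.14 FPKM on cellulose and 14.1 ± 1.72 FPKM without added carbon, and 405 ± 170.1 FPKM on D-fructose. With the replicate number as a block the calls of Triha1_99972 (edgeR adjusted p = 0.081), Triha1_80146 (edgeR adjusted p = 0.18) and Triha1_107669 (edgeR adjusted p = 0.20) were lost. Several of the 9 calls also rested on single libraries. That of Triha1_151293 was lost without the cellulose replicate 2 (edgeR adjusted p = 0.064) or the no carbon replicate 2 (edgeR adjusted p = 0.12) or 3 (edgeR adjusted p = 0.10). That of Triha1_502689 was lost without the cellulose replicate 2 (edgeR adjusted p = 0.069) or any 1 of the no carbon cultures (edgeR adjusted p = 0.11 to 0.15). Those of Triha1_99972 and Triha1_80146 were lost without any 1 of the 6 cultures and with all 18 libraries in one fit, and that of Triha1_107669 without the cellulose replicate 2 or any 1 of the no carbon cultures.

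The other genes called there, Triha1_152936, Triha1_524359 and Triha1_152943, lie close together, with Triha1_499888 between them. Triha1_524359 had 90.0, 91.4 and 83.3 CPM on cellulose, against 1.31, 6.06 and 3.05 CPM on D-fructose (4.63 ± 0.49, edgeR adjusted p = 0.00048). Triha1_152936 had 238, 244 and 215 CPM on cellulose, against 2.16, 20.6 and 11.4 CPM on D-fructose (4.33 ± 0.71, edgeR adjusted p = 0.0023). Triha1_152943 had 33.3 ± 6.38 FPKM on cellulose, 0.819 ± 0.204 FPKM without added carbon and 0.0834 ± 0.112 FPKM on D-fructose (SD, n = 3 each). These 3 genes were called higher on cellulose against both other conditions of the mutant. Against no carbon, the calls of Triha1_152936 (edgeR adjusted p = 0.37) and Triha1_524359 (edgeR adjusted p = 0.19) were lost with all 18 libraries in one fit. In the wild type they had mean FPKM of 0.0891 to 1.95 on cellulose and of 0.250 to 5.47 on D-fructose.

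The response of the mutant was then compared with that of the wild type, by a test of the difference between the responses on 12 libraries. The difference, mutant minus wild type, was called for 5007 of 11788 genes (42.5%), with 2522 positive (21.4%) and 2485 negative (21.1%). This even split depended on the scaling. With library size only, 6025 genes were called, 4807 positive and 1218 negative, and the median difference was 0.95 instead of 0.05. In the wild type itself, cellulose compared with D-fructose gave 828 of 10922 genes called (7.58%), with 303 higher (2.77%) and 525 lower (4.81%). This wild-type count depended on its replicates, which the block pairs, and was 2003 with the block. It was 2867 without the wild-type cellulose replicate 3, between 213 and 394 without any of the other wild-type cultures, and 1659 with DESeq2. The cellulose and D-fructose libraries of the strains are separate, so the calls can be set against each other over the 10726 genes tested in both. Of these, 17.8% were called higher and 21.3% lower in the mutant, and 2.30% higher and 4.86% lower in the wild type. Of the 1909 genes higher in the mutant, 90 were higher in the wild type, which is 4.71% of the mutant's genes and 36.4% of the wild type's 247. Of the 2282 lower in the mutant, 133 were lower in the wild type, which is 5.83% of the mutant's and 25.5% of the wild type's 521. Opposite calls were made for 117 genes higher in the mutant and lower in the wild type, and for 52 genes lower in the mutant and higher in the wild type. These overlaps moved with the wild-type fit. With the block in both strains, 134 genes were higher in both, 6.81% of the mutant's and 18.5% of the wild type's, and 241 were lower in both, 10.7% of the mutant's and 20.0% of the wild type's. These shares of the wild type's calls were near those of all genes, of which 18.3% were higher and 20.9% lower in the mutant with the block. Opposite calls were then made for 377 genes higher in the mutant and lower in the wild type, and for 309 genes lower in the mutant and higher in the wild type. Without the wild-type cellulose replicate 3, 154 genes were higher and 370 lower in both, and 434 and 433 had opposite calls in this order. Without any other wild-type culture, 37 to 63 were higher and 33 to 71 lower in both.

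**Figure D5:**
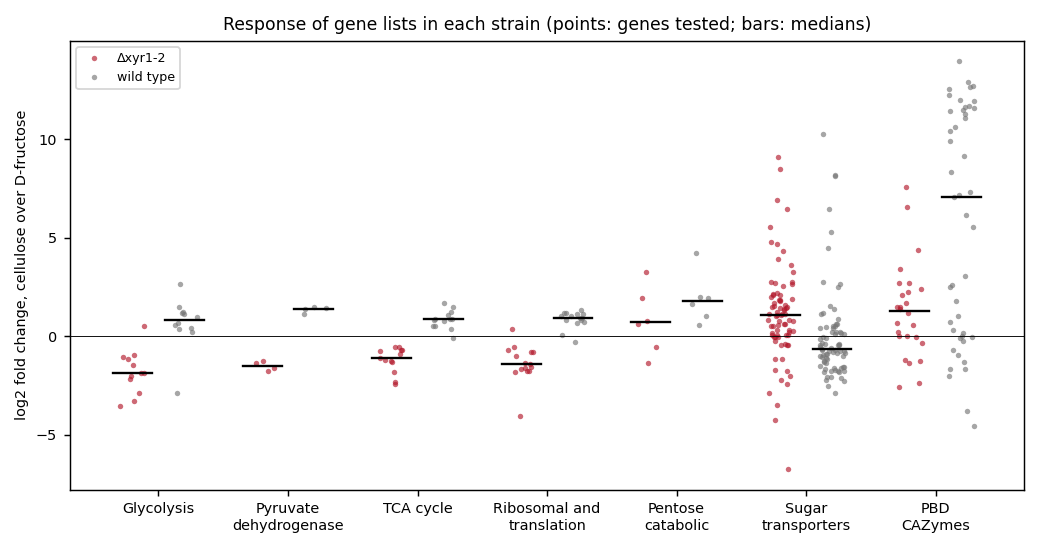
Log2 fold change, cellulose over D-fructose, of the tested genes of 7 lists, red points in strain Δ*xyr1-2* and grey points in the wild type, with black bars at the medians. Glycolysis, the pyruvate dehydrogenase complex, the TCA cycle and the translation list have medians below 0 in the mutant and above 0 in the wild type, and the sugar transporters have a median of 1.08 in the mutant and -0.65 in the wild type.

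Central metabolism differed between the strains. For glycolysis the response of 10 of 12 genes was called lower in the mutant than in the wild type and 0 higher. Over all genes in this test, 21.1% were lower and 21.4% higher. The medians of the glycolytic genes were -1.86 in the mutant and 0.84 in the wild type. Phosphoglycerate mutase had 59.6 ± 21.1 FPKM on cellulose and 415 ± 80.2 FPKM on D-fructose in the mutant, compared with 520.1 ± 234 FPKM and 214 ± 18.1 FPKM in the wild type (SD, n = 3 each). The difference in response was -5.03 ± 0.62 (edgeR adjusted p = 0.00019). Glucokinase had a difference of -4.12 ± 0.50 (edgeR adjusted p = 0.00018). In the wild type by itself glucokinase (Triha1_92402) was called higher on cellulose, a call lost without the cellulose replicate 1 (edgeR adjusted p = 0.054) or any 1 of the D-fructose cultures (edgeR adjusted p = 0.071 to 0.087). For the TCA cycle 11 of 13 genes had a lower response in the mutant and 0 a higher one, and the medians were -1.10 in the mutant and 0.86 in the wild type. With scaling by library size only, the calls of Triha1_497412, Triha1_94438 and Triha1_100502 in glycolysis were lost. In the TCA cycle this scaling ended those of Triha1_513105, Triha1_510673, Triha1_506960, Triha1_504023 and Triha1_505338. The pyruvate dehydrogenase complex had 4 of 4 and the translation list 13 of 15 genes with a lower response in the mutant.

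The wild-type cellulose replicate 3 stood apart in these lists. Glycolytic genes took 1.52, 1.87 and 0.779% of the reads of wild-type cellulose replicates 1, 2 and 3, and the translation list 0.692, 0.697 and 0.215%. In the wild type on D-fructose, replicate 3 was the lowest as well, with 0.332, 0.363 and 0.149% for the translation list. Without the wild-type cellulose replicate 3, the counts with a lower response in the mutant were 10 of 12 for glycolysis, 13 of 13 for the TCA cycle, 4 of 4 for the pyruvate dehydrogenase complex and 14 of 15 for the translation list. Without the wild-type D-fructose replicate 3 they were 9, 10, 4 and 12 in the same order. These list counts were not made without any library of the mutant, such as its D-fructose replicate 1.

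Genes of the glyoxylate cycle differed in the other direction. Malate synthase had 168 ± 21.1 FPKM on cellulose and 58.1 ± 21.2 FPKM on D-fructose in the mutant, compared with 14.5 ± 1.99 FPKM and 92.6 ± 41.9 FPKM in the wild type (SD, n = 3 each). Its difference in response was 3.32 ± 0.43 (edgeR adjusted p = 0.00027), and that of isocitrate lyase was 1.79 ± 0.49 (edgeR adjusted p = 0.012). These 2 genes were called lower on cellulose in the wild type and were not called in the mutant. In the wild type, both calls were lost without the cellulose replicate 1 (edgeR adjusted p = 0.056 for malate synthase and 0.079 for isocitrate lyase), and that of isocitrate lyase also without the cellulose replicate 2 (edgeR adjusted p = 0.071).

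Of 81 sugar transporters in the test of the difference, 34 had a higher response in the mutant and 12 a lower one. Over all genes in this test, 21.4% were higher and 21.1% lower. Without the wild-type cellulose replicate 3 the transporter counts were 44 and 11. Triha1_93294 had 1892 ± 236 FPKM on cellulose and 406 ± 138 FPKM on D-fructose in the mutant, compared with 118 ± 60.8 FPKM and 605 ± 346 FPKM in the wild type (difference 3.71 ± 0.65, edgeR adjusted p = 0.0013). Triha1_79806 had 5.46 ± 0.942 FPKM on cellulose and 307 ± 405 FPKM on D-fructose in the mutant, compared with 1139 ± 652 FPKM and 32.3 ± 34.0 FPKM in the wild type (difference -12.06 ± 1.86, edgeR adjusted p = 0.00071). The CRT1 match Triha1_502689 reached 58.0 ± 21.4 FPKM on cellulose in the mutant, compared with 2768 ± 1000.4 FPKM in the wild type (difference -6.47 ± 0.61, edgeR adjusted p = 4.3e-05).

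Of 46 PBD CAZymes in the test of the difference, all from the same part of the annotation table, 7 had a higher response in the mutant and 21 a lower one. Over all genes in this test, 21.4% were higher and 21.1% lower. The list took 1.47, 1.21 and 5.10% of the reads of wild-type cellulose replicates 1, 2 and 3, and without replicate 3 the counts were 10 and 21 of 49. In the wild type 26 of 45 were called higher on cellulose and 2 lower, beside 2.77% and 4.81% of all genes, with a median of 7.07. The lower count was 5 with the replicate block, 7 without the wild-type cellulose replicate 3, and 0 to 1 without any other wild-type culture. The AA9 gene Triha1_99387 had 1.55 ± 0.535 FPKM on cellulose in the mutant, compared with 1198 ± 646 FPKM in the wild type (SD, n = 3 each), and a difference of -9.62 ± 0.87 (edgeR adjusted p = 3.8e-05). The GH10 endo-xylanase Triha1_91773, too low in the mutant for a test there, had a difference of -12.56 ± 2.74 (edgeR adjusted p = 0.0041), with 0.362 ± 0.491 FPKM on cellulose in the mutant and 953 ± 716 FPKM in the wild type. The GH28 pectinase Triha1_88799 had the other sign, with a difference of 5.97 ± 1.23 (edgeR adjusted p = 0.0030) and 1639.9 ± 132 FPKM on cellulose in the mutant, compared with 37.5 ± 41.9 FPKM in the wild type. The GH11 endo-xylanase Triha1_118868 and the transporter Triha1_151293 were called higher on cellulose in both strains, with differences of -0.81 ± 2.81 (edgeR adjusted p = 0.83) and 0.19 ± 0.82 (edgeR adjusted p = 0.87), whose errors leave room for differences of several fold.

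The run of 8 neighbouring genes that fell in the mutant also differed between the strains, and the difference was called for the 8 of them. Their median change was -9.99 in the mutant and 2.02 in the wild type, where edgeR called 0 of the 8, with 0 at an unadjusted p under 0.05, and DESeq2 called 2. Triha1_88948 had 12.4 ± 2.23 FPKM on cellulose and 2864 ± 1254 FPKM on D-fructose in the mutant, compared with 6576 ± 5138 FPKM and 2465 ± 1704 FPKM in the wild type (SD, n = 3 each). The genes with the largest rise in the mutant, Triha1_101028, Triha1_505895, Triha1_499088 and Triha1_101981, were at 0.989 to 2.20 FPKM on cellulose and 1.29 to 3.24 FPKM on D-fructose in the wild type, with differences of 9.95 to 10.15. The hydrophobin-type gene Triha1_3176 rose in both strains, to 10844 ± 3125 FPKM on cellulose in the mutant and to 1401 ± 574 FPKM on cellulose in the wild type, and its difference of 1.27 ± 0.63 was not called (edgeR adjusted p = 0.12).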

How the data were processed

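Poly-A RNA of 18 cultures was sequenced as paired reads from libraries whose kit, as described, does not mark strand, so overlapping genes on opposite strands cannot be told apart. Per the labels and the study's methods, the authors cleaned the reads, mapped them with STAR 2.5.2b allowing at most 1 mismatch, counted reads per gene with HTSeq 0.5.4 and computed FPKM. The deposited counts are whole reads per gene, not normalized, and the deposited FPKM are scaled by gene length and library total. The columns of the authors' own tests were not used.

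Counts were tested with edgeR 4.0.16 in R 4.3.3 (TMM, filterByExpr, quasi-likelihood F test, Benjamini-Hochberg adjustment), with the 6 libraries of each comparison fitted alone and with strain, carbon source and their interaction on 12 libraries for the difference between strains, where no FPKM criterion was used. SEs were obtained from the F statistic and the fold change. The scripts were tested on simulated data. Tables and figures were made with Python 3.11.15, pandas 2.3.3 and matplotlib 3.10.9. Total counts of 16566745 to 19945330 per library set the precision of low genes, and counting intervals and floors cover counting error only.

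Same-numbered cultures of the mutant on cellulose and D-fructose deviated together (r = 0.201, 0.194 and 0.106), as did those on cellulose and without carbon (r = 0.258, 0.291 and 0.197) and those of the wild type (r = 0.455, 0.249 and 0.421). By the study's methods, each replicate set came from its own spore plates, and its pre-cultures were moved to the various carbon sources. The numbers were taken to follow these sets. Cultures of the mutant without carbon and on D-fructose are paired in this way too, but did not deviate together (r = -0.021, 0.071 and -0.117). With the block, 4296 genes were called there. Some cultures with different numbers also deviated together, such as cellulose replicate 2 and D-fructose replicate 3 of the mutant (r = 0.148). All calls are from fits without the replicate number as a block, and the block was an alternative, beside DESeq2 1.42.0, other size factors, library size only, no filter, all 18 libraries, a threshold of 0.01 on the adjusted p, calls without the FPKM criterion, and fits that omit a library.

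Genes were named by rule: among called genes without overlap, 10 in each direction by size of fold change, 8 in each direction by the change in mean FPKM, genes of core carbon metabolism, in each other list the 3 largest rises and falls and the most abundant member, the 6 largest differences between strains in each direction, the genes called against no carbon, and *xyr1*. A rule based on product names was void, since the reference used here pairs none with these genes. Members of the 8-gene run and of the run beside Triha1_499888 outside these rules were chosen after their values were seen. Members and lists were chosen with earlier results of these data known, and the lists based on GO terms were added after the files were seen. PBD CAZyme and GO lists hold only members among the 818 genes of the study's annotation table used here. Gene roles come from best matches in *T. reesei*, and the activities of PBD CAZymes are predictions from the annotation the study used. Genome order was taken from the order of genes in the RefSeq table, where all 14290 annotated genes were matched, and no coordinates or sequences are given. Scaffold names were not at hand, so a scaffold end was inferred where the start position dropped by a set distance. Ends that this rule missed would count genes of different scaffolds as neighbours.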

Additional observations from a re-analysis of the deposited data

Results flagged for a closer look

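The response to cellulose compared with D-fructose differed between the mutant and the wild type for 5007 genes, by the interaction term in edgeR's quasi-likelihood test with Benjamini-Hochberg adjustment. Values are the log2 response of the mutant minus that of the wild type, and each named gene passed the adjusted threshold of 0.05 when all 12 libraries were used. When a library was left out, the call was lost for Triha1_80414 in 10 cases (edgeR adjusted p = 0.057 to 0.12), for Triha1_510673 in 8 (0.052 to 0.064), for Triha1_497412 in 6 (0.059 to 0.072), for Triha1_392196 in 4 (0.053 to 0.057), for Triha1_2203 in 3 (0.051 to 0.061) and for Triha1_94438 in 2 (both 0.051). Scaling by library size only ended the calls of these 6 genes and of Triha1_100502, Triha1_513105, Triha1_506960, Triha1_504023, Triha1_505338, Triha1_88110, Triha1_497892, Triha1_479566, Triha1_83091, Triha1_91011 and Triha1_215393.

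The glycolytic genes with a lower response in the mutant were glucokinase (Triha1_92402, -4.12), glucose-6-phosphate isomerase (Triha1_497412, -1.46), 6-phosphofructokinase (Triha1_96154, -3.08), aldolase (Triha1_94438, -1.72), triose-phosphate isomerase (Triha1_74460, -3.25), glyceraldehyde-3-phosphate dehydrogenase (Triha1_506581, -2.86), phosphoglycerate kinase (Triha1_510202, -3.76), phosphoglycerate mutase (Triha1_141171, -5.03), enolase (Triha1_76434, -4.04) and pyruvate kinase (Triha1_100502, -1.97). After pyruvate, the response was lower for pyruvate decarboxylase (Triha1_126634, -5.46) and alcohol dehydrogenase (Triha1_77454, -4.52), and higher for aldehyde dehydrogenase (Triha1_499226, 1.47).

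In the mitochondrion, the pyruvate dehydrogenase genes had differences of -3.02 (Triha1_92323), -3.24 (Triha1_71222), -2.75 (Triha1_139606) and -2.53 (Triha1_97880). In the TCA cycle they were -4.15 for citrate synthase (Triha1_485868), -1.34 for aconitase (Triha1_513105), -3.26 for isocitrate dehydrogenase (Triha1_71098), -1.54 and -2.02 for the 2-oxoglutarate dehydrogenase subunits (Triha1_510673 and Triha1_506960), -2.40 and -2.48 for succinyl-CoA ligase (Triha1_511348 and Triha1_78682), -1.62 and -1.21 for succinate dehydrogenase (Triha1_504023 and Triha1_505338), -2.37 for fumarase (Triha1_100953) and -2.68 for malate dehydrogenase (Triha1_511595). Isocitrate lyase (Triha1_2255, 1.79) and malate synthase (Triha1_507821, 3.32) of the glyoxylate cycle had the other sign.

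In the pentose phosphate pathway the differences were -1.26 for 6-phosphogluconolactonase (Triha1_80414), -1.22 for ribulose-phosphate epimerase (Triha1_88110), -1.39 for transketolase (Triha1_2203), -1.77 for transaldolase (Triha1_497892) and 6.55 for ribose-5-phosphate isomerase B (Triha1_498824), whose fitted value depends on the prior count because no wild-type cellulose library had a read. In the pentose catabolic pathway they were -3.48 for D-xylose reductase (Triha1_83947), -2.21 for D-xylulokinase (Triha1_499653), -1.95 for L-xylulose reductase (Triha1_479566) and -1.31 for L-xylo-3-hexulose reductase (Triha1_83091). In the Leloir pathway they were -2.55 for galactokinase (Triha1_392196), -1.23 for UDP-galactose epimerase (Triha1_91011) and -1.73 for galactose-1-phosphate uridylyltransferase (Triha1_215393).

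The largest differences were those of Triha1_503269 (11.16), Triha1_535600 (10.22), Triha1_101028 (10.15), Triha1_505895 (10.11), Triha1_499088 (9.97) and Triha1_101981 (9.95) in the positive direction. In the negative direction they were those of Triha1_503468 (-13.16), Triha1_120760 (-12.71), Triha1_547019 (-12.60), the GH10 endo-xylanase Triha1_91773 (-12.56), Triha1_145786 (-12.43) and Triha1_127114 (-12.39). Triha1_503468 and Triha1_547019 had no read on cellulose in the mutant, so their fitted values also depend on the prior count. The difference of Triha1_547019 was -0.53 (edgeR adjusted p = 0.9998) without the wild-type cellulose replicate 3, and its call was also lost with the replicate block (edgeR adjusted p = 0.28), and without the wild-type D-fructose replicate 2 or 3, any 1 of the mutant's cellulose cultures or the mutant's D-fructose replicate 1 (edgeR adjusted p = 0.051 to 0.065). That of Triha1_503468 was -10.22 (edgeR adjusted p = 0.9999) without the mutant's D-fructose replicate 2, and its call was also lost without the mutant's D-fructose replicate 1 (edgeR adjusted p = 0.054) or the wild-type D-fructose replicate 3 (edgeR adjusted p = 0.060). Against the floor of 3 reads over the group, Triha1_547019 was at least 132-fold lower on cellulose than on D-fructose in the mutant.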

How the results depend on the processing

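In the mutant on cellulose compared with D-fructose, the count of called genes stayed within 1.5 times of 4541 under every alternative run, with 3961 to 4926 when each library was left out in turn and 4535 with the replicate number as a block. Among the named genes of this comparison, the block changed the calls of Triha1_497412 and Triha1_88799 and no other. Of the fold changes of named genes under these alternatives, 1483 kept their direction and side of the threshold, 53 lost their call, 31 gained one and 16 changed sign. Of the counts of calls per gene list, 324 stayed within 1.5 times of the count given and 60 did not. The difference between strains was called for 3040 genes at an adjusted p under 0.01, and for 4221 to 5849 when each library was left out. With the block it lost its call for Triha1_392196 (edgeR adjusted p = 0.055), Triha1_547019 (edgeR adjusted p = 0.28) and Triha1_80414 (edgeR adjusted p = 0.060). The count on cellulose compared with no carbon, 9, was 17 with DESeq2, 5 with all 18 libraries, 4 at an adjusted p under 0.01 and 4 to 8 when each library was left out. The count without carbon compared with D-fructose was 3839 to 4792 when each library was left out. The wild-type count, 828, was 1659 with DESeq2, 2293 with all 18 libraries, 2003 with the replicate block, 211 at an adjusted p under 0.01 and 213 to 2867 when each library was left out. The alternatives for single genes in the strain difference and against no carbon, and for the overlap, the lists and the wild-type calls between strains, were chosen after seeing the data.

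With scaling by library size only, values that were negative with TMM became 0.17 for Triha1_513105, 0.075 for Triha1_510673, 0.0020 for Triha1_504023, 0.17 for Triha1_508647, 0.043 for Triha1_505338, 0.40 for Triha1_2255, 0.15 for Triha1_492706, 0.20 for Triha1_99401, 0.26 for Triha1_2183, 0.53 for Triha1_513937, 0.24 for Triha1_2203, 0.19 for Triha1_499653, 0.13 for Triha1_504610 and 0.21 for Triha1_493571. When each library was left out in turn, Triha1_2255 had values from -0.59 (without the D-fructose replicate 3) to 0.025 (without the D-fructose replicate 1), and Triha1_99401 from -0.80 (without the D-fructose replicate 1) to 0.025 (without the D-fructose replicate 3). The cause of these changes was not tested.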
